A study of Homo sapiens with 4 samples.

Results

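The response of HH cells to interleukin-32 gamma (IL-32γ) was taken as the difference between 2 arrays, HH with IL-32γ minus HH control, out of 4 arrays in the series. HH is an established cell line of cutaneous T-cell lymphoma, a cancer of T lymphocytes that home to skin. The HH control cells were kept for 40 hours in 0.1% serum without IL-32γ, and the treated HH cells for the same 40 hours in 0.1% serum with 5 ng/ml of IL-32γ. MyLa, the other line of the series and also a line of cutaneous T-cell lymphoma, was handled the same way, and its 2 arrays are used only where HH is set beside them. Low serum was thus common to all 4 cultures. The title of the series places the study in mycosis fungoides, a skin lymphoma, and the comparison asks which transcripts of HH differ when the cytokine is added.

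IL-32 is an intracellular and secreted cytokine of T cells, NK cells and epithelial cells, and gamma is one of its splice isoforms. It is known for raising inflammatory cytokines in myeloid and epithelial cells through NF-kB and MAP kinases. No single receptor is generally accepted, and proteinase 3, integrins and focal adhesion kinase have been proposed as partners.

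Each condition was measured on 1 array of 54675 probe sets, so no value below has a replicate, a standard deviation or a test, and the number of arrays limits the precision. Levels are deposited log2 expression values after GCRMA. Values below 5 were set to 5, and a probe set was called measured if either HH array, or both, reached 5. A difference is the log2 value with IL-32γ minus the log2 value without it, and 1.5-fold corresponds to 0.585 on that scale. Where a gene had several probe sets, the one of highest mean level across all 4 arrays stood for it and is called its brightest. Of 19775 genes named on the array, 10307 were measured in HH. In RNA of a whole culture, a lower level per cell and fewer cells that carry the transcript cannot be told apart.

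The label was set against defining markers. Of 14 T cell markers, 9 were measured on both HH arrays, among them CD3D, a signalling chain of the T cell receptor, at 12.45 without and 12.50 with IL-32γ, CD4 at 13.04 and 12.84, and the receptor beta chain constant gene TRBC1 at 14.24 and 14.34. CD7, CD8A, CD28, LCK and CD52 lay below 5 on both arrays. None of the 6 myeloid, 5 NK cell, 4 endothelial or 2 erythroid markers reached 5. Of the B cell markers only the kinase gene BLK did, at 11.16 and 11.14, and of the epithelial ones only the keratin gene KRT10, at 11.52 and 11.44. The fibroblast marker COL1A1 read 4.78 without and 5.66 with IL-32γ, the only one of its 6 genes to reach 5.

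Probe sets placed along single control transcripts were read next, since they read the same transcript at several places. The 3' probe set of ACTB, the beta-actin gene, read 15.27 without and 15.24 with IL-32γ. Its middle probe set read 14.42 and 14.73, and its 5' probe set 12.69 and 13.58. The same transcript therefore gave differences of -0.03, 0.31 and 0.89, growing towards the 5' end. GAPDH, a glycolytic enzyme gene, gave 0.03, 0.06 and 0.15 in that order. For 18S ribosomal RNA the 3', middle and 5' differences were 1.03, 1.59 and 0.47, the last a bound because the control value was below 5. For 28S ribosomal RNA the 5' probe set was higher by 1.10, the middle one differed by -0.09, and the 3' one was below 5 on both arrays. The 18 probe sets of the bio and cre spike-ins, which report hybridisation, differed by at most 0.11, and the Alu repeat probe set by 0.03. Spike-ins that report labelling were not read. The part of RNA integrity or labelling in the gene differences was not tested.

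**Figure D1:**
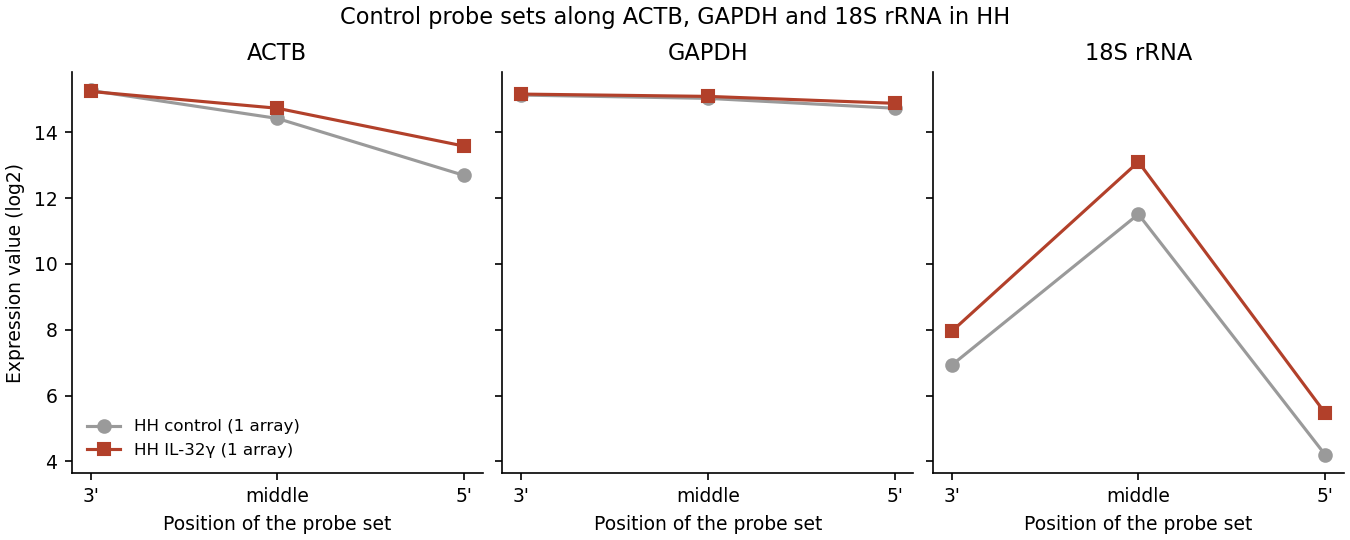
Log2 expression values (vertical axis) of the 3', middle and 5' probe sets of ACTB, GAPDH and 18S ribosomal RNA on the HH control array (grey circles) and the HH IL-32γ array (red squares), 1 array each, joined by lines. The 2 lines meet at the 3' end of ACTB and part by 0.89 at its 5' end, while GAPDH parts by at most 0.15.

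Most genes of HH read nearly the same with and without IL-32γ, and those that differed were mostly lower. Counted at 1.5-fold, 118 of the 10307 measured genes (1.14%) were higher and 460 (4.46%) lower. At 2-fold the counts were 22 and 72, and 73.8% of genes lay within 1.2-fold. Of the genes past 1.5-fold, 20.4% were higher. This split depended on the scaling, since the median gene stood at -0.07. It was 31.9% higher (156 genes higher, 333 lower) after median centring, in which the median difference of the genes was subtracted from every difference. It was 58.1% (248 higher, 179 lower) after a smooth curve over level was subtracted, which turned the balance the other way. The values nearest to the threshold were 0.59 for RPL23AP32 and 0.58 for FGF9 on the higher side, and -0.59 for STIMATE and -0.58 for USP43 on the lower side.

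The lower values gathered among dim genes. Genes with a mean level of 5 to 6 had a median difference of -0.15, those at 6 to 7 of -0.24 and those at 7 to 8 of -0.26, after which the median moved to -0.20, -0.16, -0.11 and -0.05 in the next bins of 1 log2 unit and to 0.00 at 13 and above. Of the 471 genes at 6 to 7, 21.2% were lower by 1.5-fold or more and 4.88% higher. At 11 to 12, 2 of 1816 genes were lower and 6 higher, and at 12 or more (1655 genes up to 13 and 1340 above) 1 gene was past 1.5-fold.

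**Figure D2:**
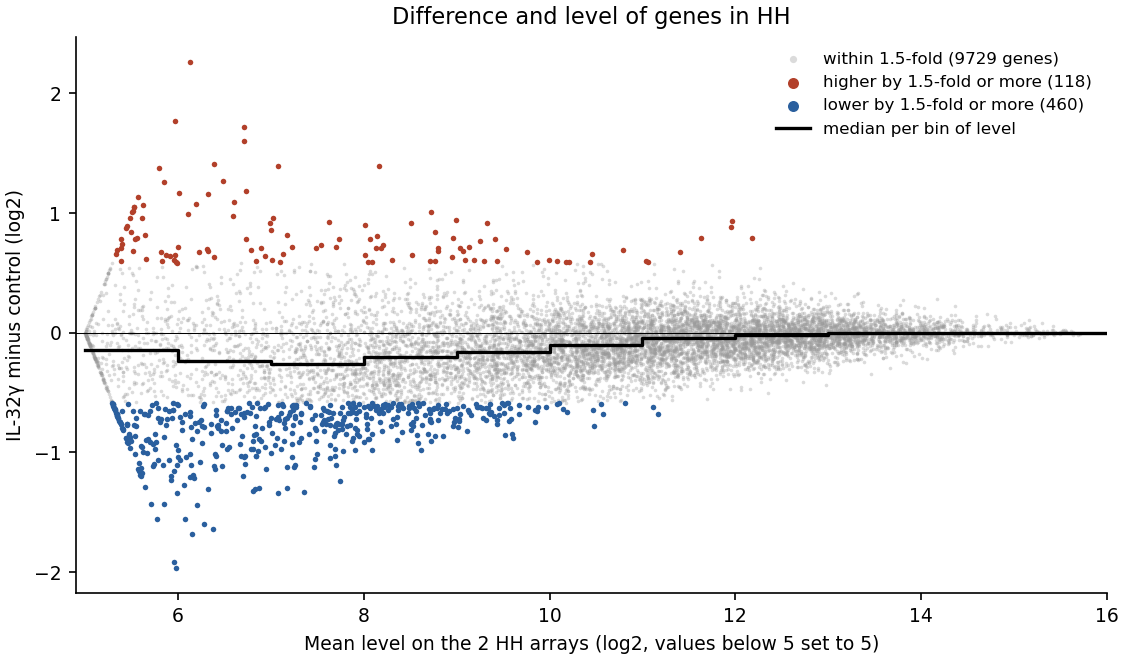
Difference of each of the 10307 measured genes (vertical axis, log2, IL-32γ minus control) against its mean level on the 2 HH arrays (horizontal axis, log2). Points are single genes, red and blue those higher and lower by 1.5-fold or more, and the black line is the median per bin, which is lowest at -0.26 between 7 and 8 and at 0.00 above 13.

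A second probe set of the same gene was measured for 5158 genes, and often read differently. All measured probe sets of a gene were above 0 for 890 genes, all were below 0 for 1436, and 2832 genes had some on each side. Of 41 such genes whose brightest probe set was higher by 1.5-fold or more, 5 had every other measured probe set past the threshold too, and 21 had another below 0. Of 110 whose brightest probe set was lower, 28 had every other one past it, and 22 had another above 0. For 25 genes, 1 probe set was past 1.5-fold upwards and another downwards. So of the 5158 genes, every measured probe set was higher by 1.5-fold or more for 5 (0.0969%) and lower for 28 (0.543%).

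The balance of higher and lower differed with the probe set read. Among brightest probe sets, 1.14% were higher and 4.46% lower. Among the 9209 other measured probe sets of named genes, 796 (8.64%) were higher and 314 (3.41%) lower, and among 3323 with no symbol in the annotation, 348 (10.5%) were higher and 129 (3.88%) lower. In each of the 4 ranges of level the share of higher probe sets was smaller among the brightest ones than in these other classes. Between 9 and 11, for example, 0.716% of the brightest probe sets were higher against 6.60% of the other probe sets of named genes. Among 988 measured probe sets with several symbols, 33 (3.34%) were higher and 55 (5.57%) lower. Their share of higher ones at 5 to 7 was 4.76%, below the 5.46% of the brightest ones. In 3153 of the 5158 genes (61.1%) the median of the other probe sets lay above the brightest one. Genes not coding for protein had a larger share among the higher genes as well, with 29 of 117 (24.8%), against 45 of 460 (9.78%) among the lower and 704 of 10297 (6.84%) among all measured genes that have a listed type. These class, level and gene type comparisons were added after the values were seen. The positions of these probe sets on their transcripts were not analysed here.

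**Figure D3:**
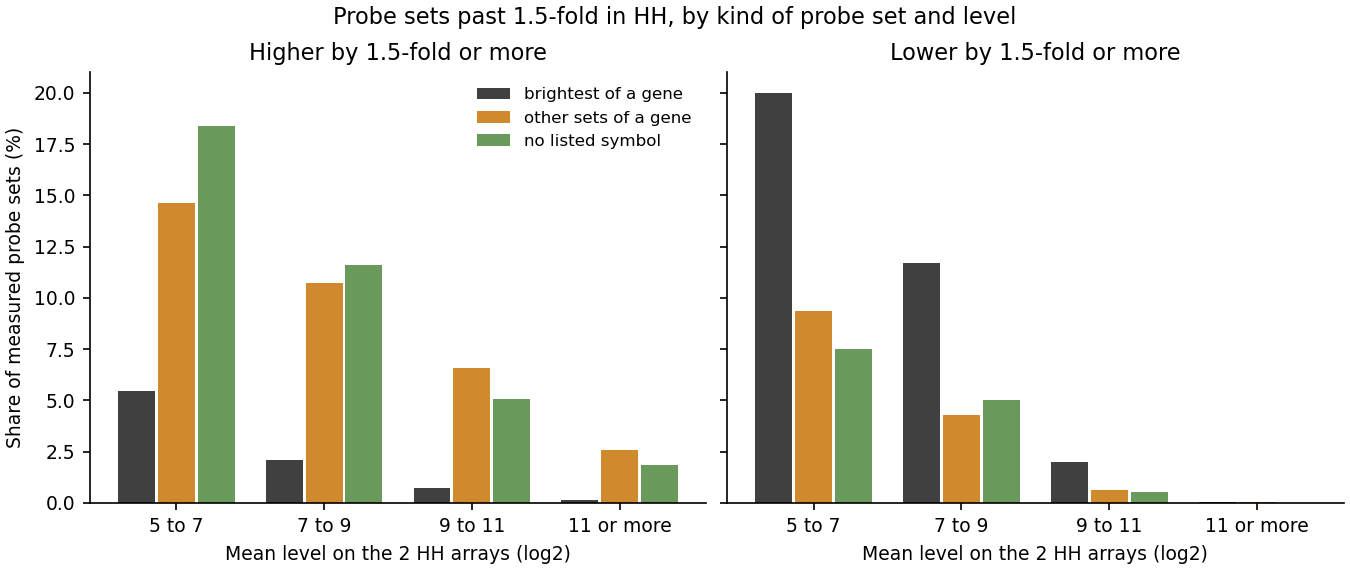
Share of measured probe sets in HH (vertical axis, percent) that were higher (left) and lower (right) by 1.5-fold or more with IL-32γ, by mean level (horizontal axis, log2). Bars stand for the brightest probe set of a gene (black), other probe sets of named genes (orange) and probe sets with no listed symbol (green); in the dimmest bin 5.46% of the black and 18.4% of the green class were higher, against 20.0% and 7.49% lower.

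The 5 genes with every measured probe set higher were HGF, RASEF, B3GNT5, LOC100190986 and TAF8. HGF encodes hepatocyte growth factor, the secreted ligand of the receptor MET. Its brightest probe set read 5.75 on the HH control array and 6.90 with IL-32γ, a difference of 1.16, and its other one read 4.97 and 5.86, a difference of 0.86 after the control value was set to 5. Both were higher with IL-32γ and close to the floor without it. RASEF, a large RAB-type GTPase with calcium-binding EF hands, was far above the floor. It read 11.49 and 12.43 (0.93) by one probe set and 10.92 and 11.77 (0.85) by the other. B3GNT5, which starts the lacto-series of glycosphingolipids, read 7.35 and 8.13 (0.78) and, by its dimmer probe set, 6.40 and 7.23 (0.82). TAF8, a subunit of the general transcription factor TFIID, read 7.68 and 8.47 (0.78) and 7.41 and 8.02 (0.61). The noncoding locus LOC100190986 read 9.18 and 9.88 (0.70) and 6.59 and 7.33 (0.74). The dimmer probe sets of RASEF and TAF8 are of the _x_at type, whose probes can match other transcripts as well. Both probe sets of HGF and the brightest of B3GNT5 are of the _s_at type. With these types left out, only LOC100190986 keeps both of its probe sets. All 5 kept every probe set past 1.5-fold after quantile normalization, median centring and subtraction of the curve over level. Median centring and the curve raised the differences of these genes, the smaller one of TAF8 from 0.61 to 0.67 and 0.84. These scalings therefore could not bring them under the threshold, and only quantile normalization could have. Their staying past it cannot be set beside the counts of lower genes that stayed.

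The genes with every measured probe set lower were led by RAB26, a GTPase of secretory vesicles, and MST1. RAB26 read 6.52 and 5.48 (-1.04) by one probe set and 6.20 and 5.16 (-1.04) by the other. Both treated values were close to the floor, and with a floor of 6 the brightest probe set stood at -0.52, under 1.5-fold. MST1 encodes macrophage-stimulating protein, a ligand related in sequence to HGF whose receptor is RON. It read 6.92 without and 5.90 with IL-32γ (-1.03), and by its other probe set 6.10 and 4.56, a difference of -1.10 after the second value was set to 5. Both are of the _x_at type, whose probes can match more than 1 transcript, and MST1 has near-identical copies in the genome. HGF and MST1, a related pair of ligands, therefore stood at opposite ends of the agreeing genes. RAB26 and MST1 were the only 2 agreeing genes with every probe set beyond the 0.89 of the 5' ACTB probe set. Over all measured genes, 35 were higher and 114 lower by more than that 0.89.

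The promoters of HGF and RASEF, the 2 highest of the agreeing genes ranked by the smallest difference, are shown. That of MST1, the lowest with an entry in the RefSeq promoter table, is shown beside them. Among these genes only RASEF stayed an agreeing gene when 7 or more on both arrays was required. Each runs from 250 bases before to 50 after the RefSeq start (build GRCh38.p14), on the minus strand in all 3: HGF at chr7:81769998-81770297, RASEF at chr9:83063093-83063392 and MST1 at chr3:49689425-49689724. Capitals mark matches to the motifs named below.
HGF: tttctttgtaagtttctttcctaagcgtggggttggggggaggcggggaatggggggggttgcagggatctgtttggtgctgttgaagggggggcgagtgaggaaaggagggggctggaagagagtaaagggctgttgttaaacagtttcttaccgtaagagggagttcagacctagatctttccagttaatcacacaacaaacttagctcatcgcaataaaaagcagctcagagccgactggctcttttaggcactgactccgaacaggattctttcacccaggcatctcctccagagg
RASEF: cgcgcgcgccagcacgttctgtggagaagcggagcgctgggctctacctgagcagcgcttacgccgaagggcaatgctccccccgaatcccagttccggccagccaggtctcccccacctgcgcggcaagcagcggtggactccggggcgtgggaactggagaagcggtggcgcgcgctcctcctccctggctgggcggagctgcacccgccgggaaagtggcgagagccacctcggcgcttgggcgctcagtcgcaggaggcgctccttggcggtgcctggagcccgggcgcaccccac
MST1: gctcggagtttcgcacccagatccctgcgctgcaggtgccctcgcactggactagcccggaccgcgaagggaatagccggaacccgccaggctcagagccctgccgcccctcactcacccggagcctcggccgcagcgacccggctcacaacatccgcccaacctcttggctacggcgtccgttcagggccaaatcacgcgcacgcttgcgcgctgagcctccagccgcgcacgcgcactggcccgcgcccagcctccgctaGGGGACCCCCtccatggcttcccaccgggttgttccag
The capitals in MST1 are a match to the NF-kB consensus. No motif searched was found in the windows of HGF and RASEF, which says only that these letters are not there.

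The common motifs below, chosen after the values were seen, were searched on both strands, and matches of different motifs may overlap. Of the measured genes, 8500 had a promoter in the table, among them 83 higher and 354 lower ones. The NF-kB consensus had a match in 12.8% of all, 7.23% of the higher and 16.1% of the lower promoters. For ETS (CCGGAAG) the shares were 21.3% of all, 14.5% of the higher and 13.6% of the lower, so both groups were below the whole. For STAT (TTCNNNGAA) they were 6.15%, 8.43% and 5.65% in the same order. For AP-1, searched as TGACTCA or TGAGTCA, they were 2.72%, 4.82% and 3.39%. For the cyclic AMP element (TGACGTCA) they were 3.55%, 4.82% and 3.67%. The E-box (CACGTG) gave 10.8%, 8.43% and 9.89%, and CCAAT 37.8%, 39.8% and 35.0%. The YY1 core gave 2.32%, 0% and 1.13%, and the NRF1 core 2.69%, 2.41% and 1.98%. Among the higher genes these shares rest on 0 to 33 promoters each.

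There were 26 other agreeing lower genes. DGKZ, the diacylglycerol kinase zeta that removes diacylglycerol after T cell receptor signals, read 10.05 without and 9.17 with IL-32γ (-0.88), and 6.15 and 5.41 (-0.75) by its other probe set. CDS1, which makes CDP-diacylglycerol for phosphoinositides, read 7.27 and 6.17 (-1.10), and its other probe set gave -0.88 as a bound. DOCK6, a guanine nucleotide exchange factor, read 9.00 and 8.15 (-0.85) and 8.70 and 7.87 (-0.84), so both of its probe sets told the same size. CUL7, a scaffold of ubiquitin ligases, read 7.32 and 6.43 (-0.88) and 7.30 and 6.37 (-0.93). BTN2A2, a butyrophilin known to restrain T cells, gave -0.78 and -0.84. SUOX, the sulfite oxidase, gave -0.89 and -0.72, DUS2, which makes dihydrouridine in transfer RNA, -0.77 and -0.74, and the zinc finger gene ZNF142 -0.77 and -0.92. PHKA1, the muscle alpha subunit of phosphorylase kinase, gave -1.29 and -0.73.

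The remaining ones lay nearer to the threshold. STOX2 gave -0.68 and, as a bound, -1.53, TRIM62, a RING finger ubiquitin ligase, -0.67 and -1.04, and MYH10, a nonmuscle myosin heavy chain, -1.03 and, as a bound, -0.60. ZYX, the focal adhesion protein zyxin, read 9.56 and 8.94 (-0.62) and 9.72 and 9.02 (-0.70). VPS33B, which tethers vesicles for fusion, was the brightest of them at 11.42 and 10.80 (-0.62), with -0.61 by its other probe set. ZKSCAN5, PITPNM2, ACAP3, MTUS1, CEP250, SPAG8, CFAP44, GTF3C1, RNF123, WRAP53, TBC1D1 and STIMATE were lower too (1 probe set of STIMATE as a bound), their brightest probe sets between -0.59 and -0.76. Of the 28, 23 kept every probe set past 1.5-fold after quantile normalization, 14 after median centring, and 5 after subtraction of the curve over level: RAB26, MST1, CUL7, CDS1 and DOCK6. The genes beyond the first 15 were named after their values were seen.

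**Figure D4:**
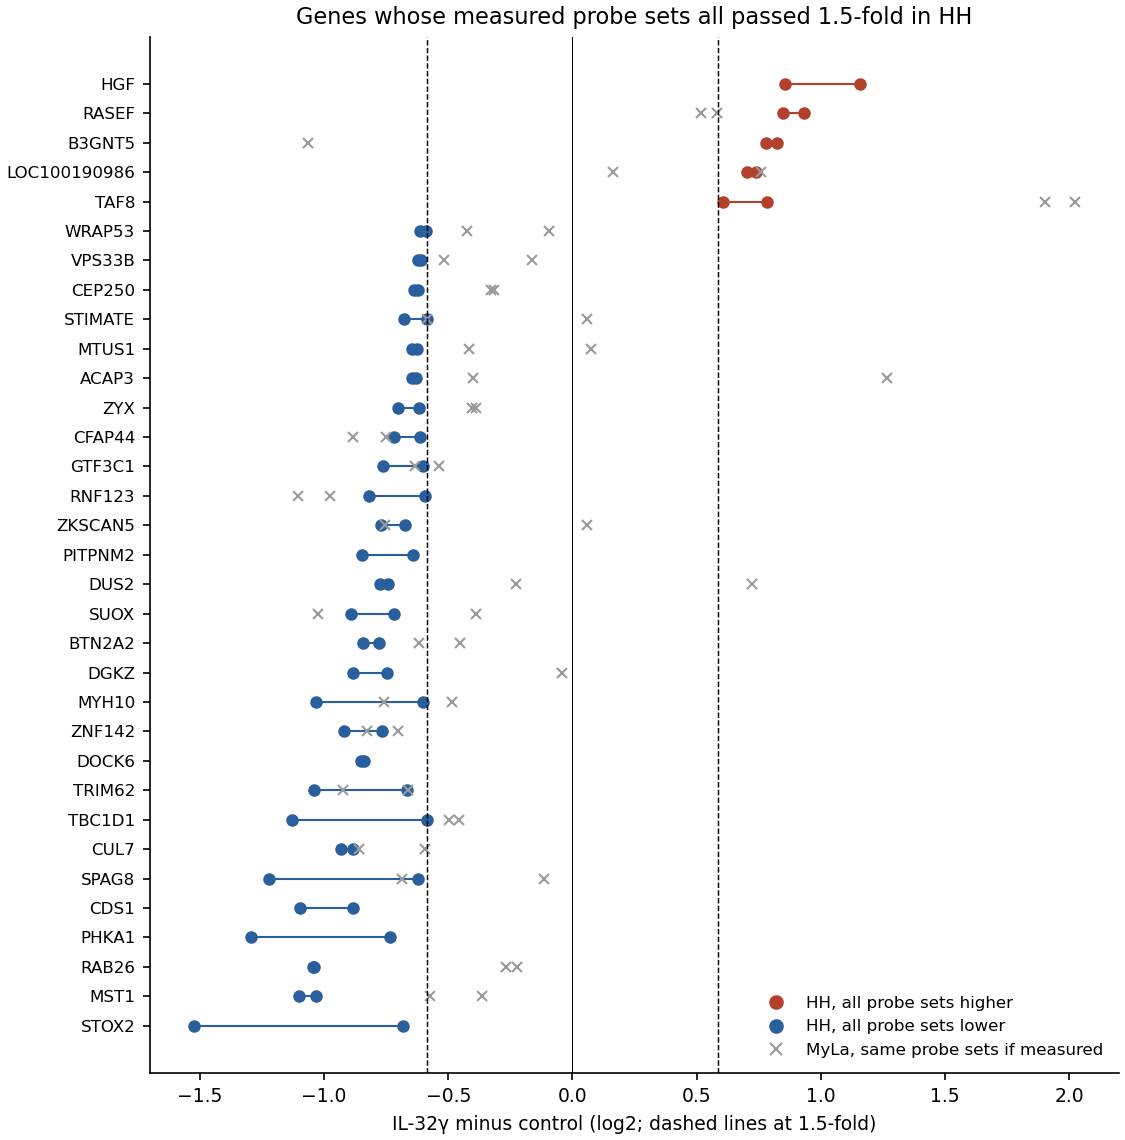
Differences (horizontal axis, log2, IL-32γ minus control) of every measured probe set of the 33 genes whose measured probe sets all passed 1.5-fold in HH, red for higher and blue for lower, joined by a line per gene. Grey crosses are the same probe sets in MyLa where measured there; TAF8 lies further right in MyLa, at 2.02 and 1.90, and B3GNT5 on the other side of 0, at -1.07.

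Some genes had every probe set on the higher side with part of them under the threshold. STAT3, the transcription factor downstream of interleukin-6 and related cytokines, was one. Its brightest probe set read 10.34 and 10.79 (0.45), the second 6.91 and 7.41 (0.50) and the third 5.09 and 5.83 (0.74), so all 3 stood above 0 and 1 of 3 passed 1.5-fold. THRAP3, a splicing and transcription cofactor, gave 0.34, 0.46 and 0.71. RUSC1-AS1, an antisense transcript, read 11.56 and 12.08 (0.52) and 11.40 and 12.12 (0.72). UBXN7, an adaptor of the p97 ATPase, gave 0.80 and 0.44, PHC2, a Polycomb protein, 0.44 and 0.61, and ZNF765 0.47 and 0.61. FEM1A, FAM111B, SRGAP2 (which also has near-identical copies) and HCG11 made up the rest of the 15 highest, with brightest differences from 0.37 to 0.96.

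Counted in the same way among the 9184 genes at 7 or more on both HH arrays, 54 (0.588%) were higher and 209 (2.28%) lower. The highest was SYNC, an intermediate filament protein, at 7.46 and 8.86 (1.39). SEPSECS-DT, a divergent noncoding transcript, read 8.22 and 9.23 (1.01), and MIX23, a mitochondrial protein gene, 8.52 and 9.46 (0.95). GPR15, a homing receptor of T cells, read 8.87 and 9.78 (0.92). The ion channel gene TRPA1 read 8.05 and 8.97 (0.92), CNTNAP5 7.17 and 8.09 (0.93), and BEND4 7.74 and 8.55 (0.81). None of these 7 had another measured probe set to weigh against. Others of the 12 highest did, and there the picture was less even. BTBD7 gave 0.89 by its brightest probe set and 1.00, 0.46 and -0.10 by the others. AKAP6, which anchors protein kinase A, gave 0.80 and -0.41, and SLC3A1, a subunit of a cystine transporter, 0.84 and, as a bound, 0.21.

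At the lower end of these brighter genes stood DDX19B, an RNA helicase of messenger RNA export, at 8.36 and 7.13 (-1.24). HIP1R, a clathrin and actin binding protein, read 8.26 and 7.15 (-1.10), while its other probe set gave -0.27. The sorting receptor gene SORCS1 read 8.16 and 7.11 (-1.04), CCDC78 8.20 and 7.18 (-1.03), and COLQ, the collagen tail of acetylcholinesterase, 8.27 and 7.29 (-0.99). SSH3, a cofilin phosphatase of the slingshot family, gave -0.98 and, by its other probe sets, -0.36 and -0.13, the last a bound. RRBP1, a ribosome receptor of the endoplasmic reticulum, gave -0.98 and -0.14. TMEM86B, PSMG3-AS1 and ZBTB49 stood at -0.98, -0.97 and -0.92. IL10RA, the ligand-binding chain of the interleukin-10 receptor, read 8.11 and 7.17 (-0.94), and GYS1, glycogen synthase, 8.46 and 7.55 (-0.92), each by its only measured probe set.

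Few genes crossed the floor. On both arrays 10105 genes were at 5 or more, 53 with IL-32γ only and 149 on the control array only, of which 12 and 40 were past 1.5-fold. The transcription factor gene KLF3 read 6.92 without IL-32γ and 4.95 with it, and the ganglioside synthase gene B4GALNT1 6.29 and 4.50. Against the floor of 5 these are at least 3.77-fold and 2.44-fold lower. LOC100505915, in the opposite direction, read 4.83 and 7.26.

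Gene groups were read from 48 lists of pathways and cell functions, 47 of them with 5 or more measured genes. They held 939 distinct measured genes, of which 10 were higher and 34 lower by 1.5-fold or more, beside 1.14% and 4.46% of all genes. In 20 lists no member passed. With a floor of 6, the members ATG2A (-0.29), B4GALNT1 (-0.29), IL12RB2 (-0.13), PFKFB3 (-0.445), PTPN13 (-0.57) and SCARNA17 (0.48) fell under 1.5-fold. List medians ran from -0.22 to 0.15 and 37 of the 48 were below 0, where all genes had a median of -0.07 and 65.9% of them were below 0, the share against which the counts below 0 in the lists are to be read. This count moved to 39 after quantile normalization, 17 after median centring and 26 after subtraction of the curve over level. Over these scalings and the deposited scale, 15 lists stayed below 0, 9 stayed above it and 24 changed sign. Median centring raised every difference, so it could not turn a list median from above 0 to below it.

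**Figure D5:**
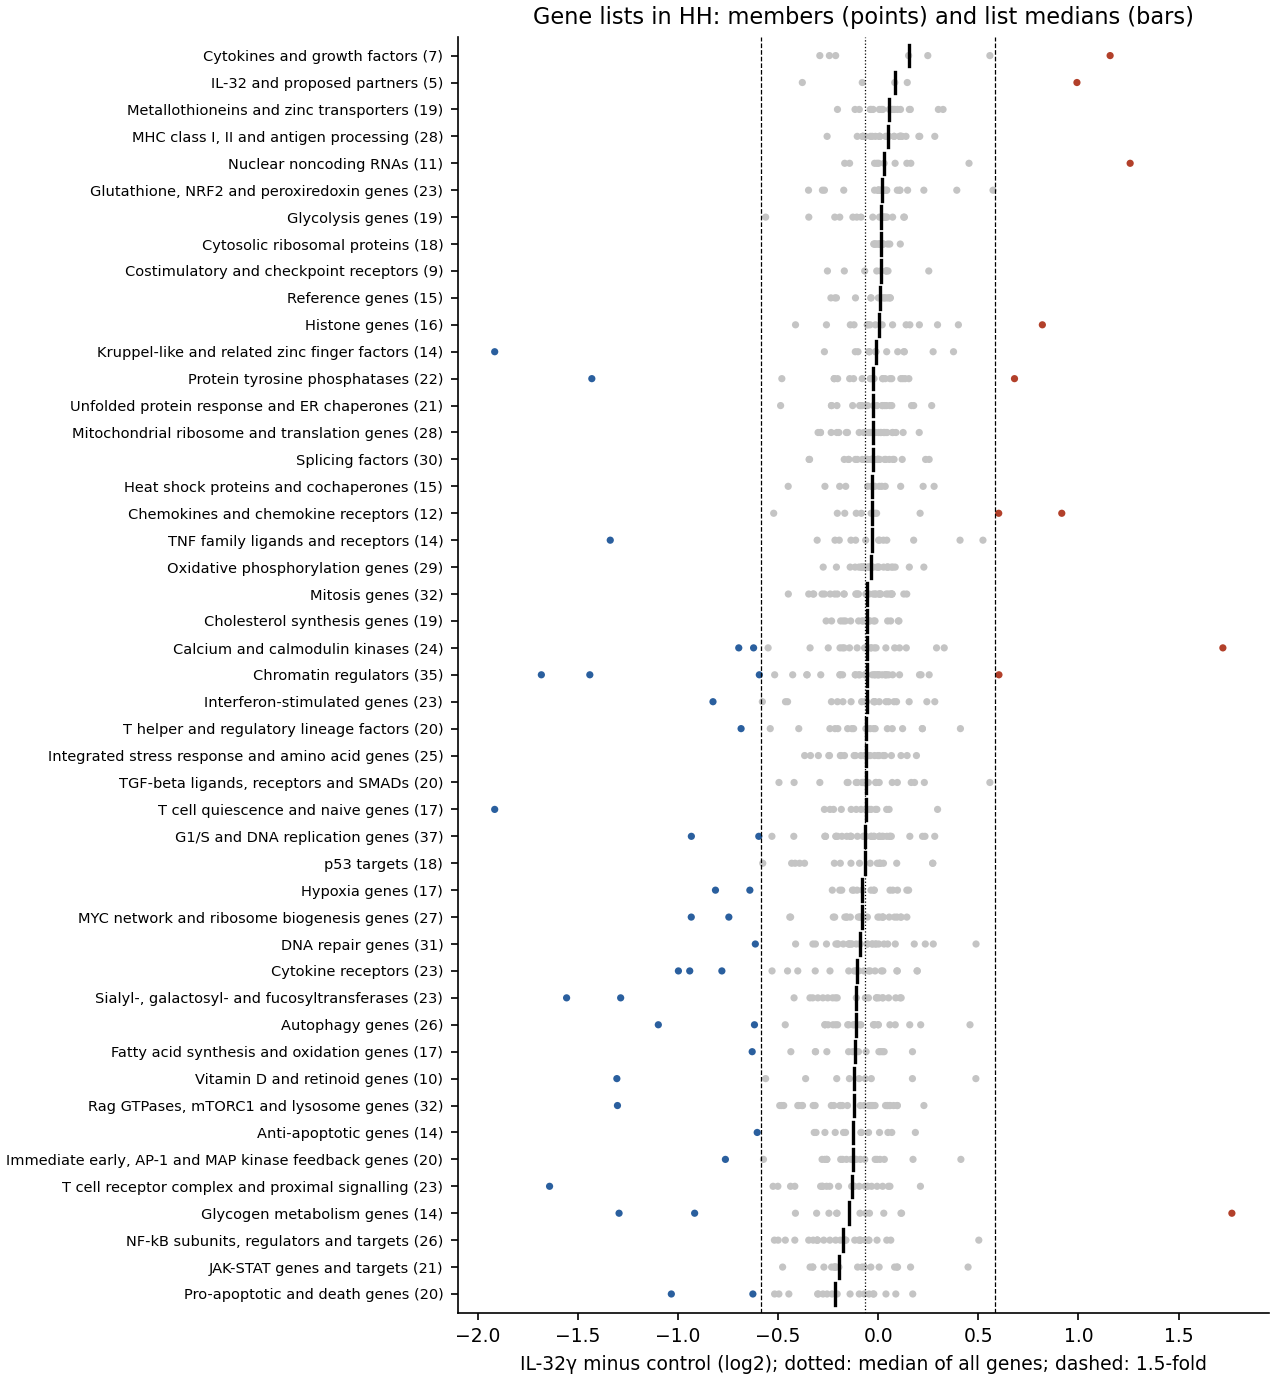
Differences (horizontal axis, log2, IL-32γ minus control) of the measured members of each list with 5 or more of them, with the number of members in brackets. Grey points are members within 1.5-fold, red and blue points members higher and lower, black bars the list medians, and the dotted line the median of all genes at -0.07; cytokines stand highest (0.15) and pro-apoptotic genes lowest (-0.22) on the deposited scale.

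The proposed partners of the cytokine came first. IL32 itself read 13.70 without and 13.78 with IL-32γ, near the top of the scale. PTK2, focal adhesion kinase, read 5.61 and 6.60 (0.99) and was the 1 member of 5 past 1.5-fold. PRKCD and PRKCE, protein kinase C isoforms, stood at -0.38 and 0.15.

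Of the cytokine and growth factor list, 1 of 7 measured members was past 1.5-fold, HGF, and the median of 0.15 was above 0 under all 4 scalings. The median level of these 7 genes was 6.32. TGFB3 read 5.92 and 6.48 (0.56), PDGFA stood at 0.25 and TGFB1 at -0.29. Of 12 chemokine and chemokine receptor genes, 2 were higher: GPR15 and CCL22, a ligand of CCR4, which read 6.54 and 7.14 (0.60). CCL5 gave 0.21 by its brightest probe set and -0.21 and -0.16 by the others, and the gut homing integrin gene ITGB7 read 11.10 and 10.57 (-0.52). This list's median of -0.03 became 0.04 with median centring and 0.03 with the curve removed.

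Of 23 measured receptors for cytokines, 3 were lower by 1.5-fold or more, none was higher and 17 were below 0. Their median of -0.11, close to the -0.07 of all genes, was -0.04 with median centring and -0.03 with the curve over level removed. IL4R, the receptor chain shared by interleukins 4 and 13, was bright, at 10.87 and 10.09 (-0.78). IL10RA was lower as given above. IL12RB2, a chain of the interleukin-12 receptor, read 6.13 and 5.13 (-0.998), its treated value close to the floor. IL15RA stood at -0.53 and IL7R at -0.24. Of 14 TNF family genes, 1 was lower, TNFSF8, the CD30 ligand, at 6.66 and 5.32 (-1.34). TNFSF10, encoding TRAIL, gave 0.52, 0.32 and -0.03 by its 3 probe sets, and CD70 0.41. Of 9 costimulatory and checkpoint receptors none was past 1.5-fold, CD48 at 0.25 and CD96 at -0.25 being the extremes.

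Of 23 genes of the T cell receptor and its proximal signal, 1 was lower by 1.5-fold or more, beside 4.46% of all genes, and none was higher. Below 0 were 19 of them, beside 65.9% of all genes, and their median was -0.13, or -0.065 with median centring and -0.08 with the curve removed. The member past the threshold was DOK3, an inhibitory adaptor, at 7.20 and 5.56 (-1.64). LCP2, the adaptor SLP-76, had 3 probe sets, all lower: 7.48 and 6.96 (-0.52) by the brightest, -1.21 by the second, and -0.96 as a bound by the third. PLCG1, which cleaves phosphoinositides after receptor engagement, gave -0.50 at a level of 12.60 on the control array, and -0.54 by its other probe set. The kinase gene ZAP70 gave -0.44 and 0.07. Of 24 calcium and calmodulin kinase genes, 1 was higher and 2 were lower. CAMK1 read 5.85 and 7.57 (1.72), the plasma membrane calcium channel gene ORAI1 7.61 and 6.91 (-0.70), and ITPR3, a calcium release channel, 10.27 and 9.64 (-0.62), with -0.27 by its other probe set. ORAI2 gave -0.55 by its brightest probe set, and -0.36 and 0.27 by the others.

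The pathways through which IL-32 is known to act elsewhere showed no member past 1.5-fold by the brightest probe set, apart from 1 gene of the MAP kinase feedback list. Of 26 NF-kB genes, 23 were below 0, with a median of -0.18 that stayed below 0 under all 4 scalings and was -0.09 with the curve over level removed. RELB read 6.54 and 6.02 (-0.52) and the inhibitor gene NFKBIE 11.01 and 10.51 (-0.50). REL went the other way with 0.50, 1.01 and 0.43 by 3 probe sets and -0.18 by the fourth. Of 20 immediate early, AP-1 and MAP kinase feedback genes, 16 were below 0 and 1 was lower, the phosphatase gene DUSP2 at 7.97 and 7.21 (-0.76). DUSP10, a phosphatase of stress kinases, stood at 0.41 and 0.33. Of 21 JAK-STAT genes, 15 were below 0 with a median of -0.20, which was -0.05 with the curve removed. STAT3 was the highest member and CISH, a feedback inhibitor, the lowest (-0.48, with 0.00 by its other probe set).

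Of 23 interferon-stimulated genes, 1 was lower and none higher. IFIT3 read 8.83 and 8.001 (-0.82), and its dimmer probe set gave -0.25 as a bound. IRF7 stood at -0.58, MX2 at -0.46 and PARP14 at -0.45, and the list's median of -0.06 turned to 0.01 with median centring and 0.06 with the curve removed. The 28 genes of antigen presentation stayed within 1.5-fold by the brightest probe set and 19 of them were above 0, with a median of 0.05 that was above 0 under all 4 scalings. HLA-DRA, the class II alpha chain, read 14.03 and 14.31 (0.28) and 13.88 and 14.08 (0.20). ERAP1, which trims peptides for class I, gave 0.20 by its brightest probe set, 0.83 by the second and 0.02 and -0.03 by the others.

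Of 20 lineage factors, 1 was lower, IKZF4, a partner of FOXP3, at 7.54 and 6.86 (-0.68). TWIST1, often expressed in this lymphoma, read 8.18 and 7.64 (-0.54). Of 17 genes of quiescent and naive T cells, only KLF3 was lower, and TOB1, an inhibitor of proliferation, stood at 0.30 by its brightest probe set and at 1.55 by its other one (8.36 and 9.92). Among 3 measured cytotoxic granule genes none was past 1.5-fold, the perforin gene PRF1 at -0.46 being the lowest.

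Of 20 pro-apoptotic genes, 2 were lower and none higher by 1.5-fold or more, and 17 were below 0, with a median of -0.22. BMF, a BH3-only protein, read 7.19 and 6.16 (-1.03) and BIK, another, 7.20 and 6.57 (-0.63). BID stood at -0.52 and FADD, the adaptor of death receptors, at -0.50. The median, the lowest of the 48 lists as deposited, was -0.06 with the curve over level removed, where several other lists, the NF-kB one (-0.09) among them, lay lower. Of 14 anti-apoptotic genes, 1 was lower, AVEN, at 8.51 and 7.91 (-0.60), and BCL2 stood at -0.32. None of 18 p53 targets was past 1.5-fold. CDKN1A stood at -0.43 and XPC at -0.58.

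Proliferation genes were bright and close to 0. None of 32 mitosis genes was past 1.5-fold by the brightest probe set, KIF20A being lowest at -0.45, and their median was -0.05. Of 37 genes of G1/S and DNA replication, 2 were lower: POLD1, the catalytic subunit of polymerase delta, at 7.69 and 6.76 (-0.93), and POLE, that of polymerase epsilon, at 9.19 and 8.59 (-0.60). Of 31 DNA repair genes, XRCC3 was lower at 8.45 and 7.84 (-0.61). Of 27 genes of the MYC network and ribosome biogenesis, BYSL, a factor of the small subunit, was lower at 7.13 and 6.20 (-0.93), and POLR1A, the large subunit of RNA polymerase I, at 10.22 and 9.48 (-0.75) with -0.38 and 0.03 by its other probe sets. By the brightest probe set, the 18 cytosolic ribosomal protein genes ranged from -0.02 to 0.11, and the 15 reference genes from -0.24 to 0.06. TFRC, a reference gene, gave -0.11 by its brightest probe set, and 0.73 and -0.05 by the others.

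Glycogen genes held differences in both directions. Of 14, 1 was higher and 2 were lower. PHKG1, the catalytic subunit of phosphorylase kinase in muscle, read 5.09 and 6.85 (1.77), while PHKA1, a regulatory subunit of the same enzyme, and GYS1 were lower as given above. PYGB, a glycogen phosphorylase, stood at -0.41. None of 19 glycolysis genes was past 1.5-fold, HK1 being lowest at -0.56. Of 17 hypoxia genes, 2 were lower, PFKFB3 at 6.45 and 5.63 (-0.81) and PFKFB4 at 9.02 and 8.38 (-0.64), which set the level of an activator of glycolysis. Of 17 fatty acid genes, SREBF1, the transcription factor of lipid synthesis, was lower at 8.85 and 8.22 (-0.63) with -0.23 by its other probe set. None of 19 cholesterol synthesis genes, 29 respiratory chain genes or 28 mitochondrial translation genes passed by the brightest probe set. TUFM, of the last list, gave -0.23 by its brightest probe set and -0.71 by its other one.

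Of 26 autophagy genes, 2 were lower and none higher. ATG2A, a lipid transfer protein, read 6.29 and 5.19 (-1.10) and ATG9A, a scramblase, 9.53 and 8.92 (-0.62). ATG7, an activating enzyme, gave 0.46, 0.12 and -0.16. Of 32 Rag GTPase, mTORC1 and lysosome genes, RRAGB was lower at 6.98 and 5.67 (-1.30). TFEB, the transcription factor of lysosomes, gave -0.49 and -0.70, and DEPTOR, an inhibitor of mTOR, -0.48. Among 10 vitamin D and retinoid genes, CYP27B1, which makes active vitamin D, read 7.48 and 6.18 (-1.30), and RARA gave 0.49, -0.67 and -0.50. Of 23 glycosyltransferase genes of glycan caps, ST3GAL6 read 6.85 and 5.30 (-1.56), and B4GALNT1 was lower as a bound. B3GNT5 was not on this list.

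Chromatin genes gave 1 higher and 3 lower of 35. KDM6A, a demethylase, gave 0.60 and 0.16. PHF21B read 6.99 and 5.31 (-1.68), ANKRD11 6.93 and 5.49 (-1.44) with -0.29 by its other probe set, and HDAC7, a deacetylase of T cells, 10.85 and 10.26 (-0.59). Of 16 histone genes, H1-3, a linker histone, read 6.77 and 7.59 (0.82), and H2AX gave -0.41 and -0.39. Of 22 tyrosine phosphatases, PTP4A3 gave 0.68 and -0.04, and PTPN13 read 6.57 and 5.14 (-1.43). Of 11 nuclear noncoding RNAs, SCARNA17 read 5.22 and 6.48 (1.26).

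None of 30 splicing factors, 25 integrated stress response genes, 21 unfolded protein response genes, 15 heat shock genes, 20 TGF-beta genes, 19 metallothionein and zinc transporter genes or 23 glutathione and peroxiredoxin genes was past 1.5-fold by the brightest probe set. The metallothionein and zinc list had a median of 0.06, above 0 under all 4 scalings, with MT1X, a metallothionein, at 12.27 and 12.59 (0.32) and 0.21 by its other probe set. GCLM, a subunit of the enzyme that limits glutathione synthesis, gave 0.57 by its brightest probe set, and -0.31 and -0.13 by the others. Of 14 Kruppel-like factor genes only KLF3 passed by the brightest probe set. KLF7 gave 0.27 by its brightest probe set, and 0.90, 0.12, 0.01 and -0.35 by the others.

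The agreeing genes were last set beside MyLa, with no test of the difference between lines, since each line has 1 array per condition. At the same 1.5-fold, MyLa had 816 higher (7.77%) and 803 lower genes (7.65%) among 10497, and its 5' ACTB probe set was higher by 1.69. Of the 28 lower agreeing genes, 22 had 2 or more measured probe sets in MyLa. There 16 had all of them below 0, and 5 all lower by 1.5-fold or more: CFAP44, CUL7, RNF123, TRIM62 and ZNF142. These counts have no share over all MyLa genes beside them, so they cannot be read as agreement between the lines. ZNF142 gave -0.83 and -0.70 in MyLa and CUL7 -0.59 and -0.86. RAB26 stood at -0.22 and -0.27 and MST1 at -0.57 and -0.37, while CDS1, DOCK6, PHKA1, STOX2 and PITPNM2 were below 5 on both MyLa arrays.

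Of the 5 higher agreeing genes, 3 had 2 or more measured probe sets in MyLa. TAF8 gave 2.02 and 1.90, with -0.35 by another that was not measured in HH, RASEF 0.52 and 0.58, and LOC100190986 0.76 and 0.16. HGF was below 5 on both MyLa arrays. The next count also has no share over all genes beside it. Counting genes past 1.5-fold the same way in both lines by the brightest probe set, with another measured probe set in HH and all of them of 1 sign there, gave 7 higher and 21 lower. Among them MPV17L gave 1.17 and 0.22 in HH, and in MyLa 0.79 by the brightest and 0 by the other. CHRNA3, a nicotinic receptor subunit, gave 0.60 and 0.08 in HH, and 0.75 and -0.20 in MyLa. ESCO2, a cohesin acetyltransferase, gave 0.68 and 0.15 in HH, and 2.19 (a bound) and 0.15 in MyLa. Lower in both were MYH10 (-1.03 and a bound of -0.60 in HH, -0.76 and -0.48 in MyLa) and SUOX (-0.89 and -0.72 in HH, -1.02 and -0.39 in MyLa). CNNM2 gave -0.78, -0.17 and -0.34 in HH, the last pair as bounds, and -0.996 in MyLa. SYNC, at 1.39 in HH, stood at 1.31 in MyLa by its only measured probe set (7.49 and 8.80), and GPR15 at 1.25 (6.48 and 7.73). SUOX, ZNF142, SLC45A4 and LOC389906 were among the 6 lowest of this shared set. LOC389906 stood at -1.60 in HH and -0.96 in MyLa, with -0.03 (a bound) and -0.73 by its other probe set. SLC45A4 stood at -0.77 in HH and -0.98 in MyLa, with -0.08 and 0.14 (a bound) by its other one.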

How the data were processed

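Total RNA of 2 HH and 2 MyLa cultures was amplified in 1 round and carried a biotin label, per the labels, with 1 array per line and condition. What the authors deposited is a log2 expression value for each probe set, from 2.13 to 16.0, made with GCRMA per the submitters' processing notes. That they are log2 was read from their range. GCRMA corrects background, normalizes and summarises probes. The sources used here do not give its version, or whether the 4 arrays were normalized together. On the HH control array 41.6% of probe sets lay at the lowest value. Depth is not defined for arrays.

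Of 54675 probe sets, 41097 had 1 gene symbol in the platform annotation, 1801 several and 11777 none, controls included. Symbols of 41043 were updated by Entrez ID to RefSeq names, and promoters come from the RefSeq table of GRCh38.p14, using the first start listed per gene. Values below 5 were set to 5 and genes counted at 1.5-fold, as described above. With 1 array per condition no test was run. The genes named were the 15 highest and lowest among genes whose measured probe sets all had 1 sign (ranked by the smallest difference), the 12 highest and lowest at 7 or more on both arrays, the 5 largest each way measured on 1 array only, list members past 1.5-fold or else up to 4 with the largest difference, control probe sets, and the 6 highest and lowest shared with MyLa. Not every gene the rule allows is printed. Members and lists were chosen with earlier results of these data known. Alternatives were floors of 4 and 6 and none, quantile normalization, median centring, a lowess curve over level (fraction 0.3, 3 rounds), other choices of probe set, level minimums, and 1.3-fold and 2-fold. The counting was tested on simulated data. One control gene is not reported here. Python 3.11.15, pandas 2.3.3 and numpy 2.4.6 were used.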

Additional observations from a re-analysis of the deposited data

Results flagged for a closer look

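B3GNT5 was higher in HH by both probe sets (0.78 by the brightest) and lower in MyLa by its brightest one (-1.07, as a bound), and DUS2 was lower in HH (-0.77) and higher in MyLa by its brightest one (0.72), with -0.23 by the other. With 1 array per condition the difference between lines was not tested.

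Probe sets with no listed symbol, which take no part in the gene counts, held 348 higher and 129 lower by 1.5-fold or more in HH, of 3323 measured. In MyLa the balance was the other way, with 319 higher and 476 lower of 3328. These probe sets are not named here, and the difference between lines was not tested.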

How the results depend on the processing

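The counts of higher and lower genes stayed within 1.5 times of 118 and 460 under floors of 4 and 6, no floor, quantile normalization, median centring and the other choices of probe set. They moved to 248 higher and 179 lower with the curve over level removed, to 54 and 209 among genes at 7 or more on both arrays, to 282 and 1259 at 1.3-fold, and to 22 and 72 at 2-fold. Genes with every probe set higher numbered 8 without a floor, 9 with the curve removed, 2 at 7 or more on both arrays, 11 at 1.3-fold and 0 at 2-fold. Those with every probe set lower numbered 14 with median centring, 5 with the curve removed, 18 without _x_at and _s_at probe sets, 8 at 7 or more on both arrays, 139 at 1.3-fold and 2 at 2-fold. Changed thresholds, floors and level minimums, and probe sets left out, change these counts by definition. Median centring subtracts a median of -0.07, which raises every difference. Why the median lay below 0, and why the lower values gathered among dim genes, was not tested. Genes beyond the 5' ACTB difference numbered 85 with a floor of 6, 98 with median centring and 24 at 7 or more on both arrays. With median centring the ACTB difference was centred too, so that limit was larger than on the deposited scale. List medians below 0 numbered 17 with median centring. Leaving out _x_at and _s_at probe sets turned AKAP6 to -0.41, BTBD7 to -0.10 and PTP4A3 to -0.042, because another probe set then stood for the gene. Of the 111 named genes past 1.5-fold, 102 stayed so with quantile normalization, 90 with median centring, 79 with the curve removed and 95 of 109 with a value at a floor of 6. Lacking replicates, a single gene's value was called moved when it shifted by more than 0.317, the pooled SD between probe sets of a gene. No array could be left out, and no paired analysis was possible because each condition has 1 array and the result comes from no test. Values near 5 limit what can be read of dim genes.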
